A study of Mus musculus with 12 samples.

Results

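The cells described here were spleen CD8 T cells that bound the IGRP tetramer and carried at least 1 unique molecular identifier (UMI) of Cxcr6, with 0 UMIs of Cx3cr1 and 0 of Ccr7. They numbered 235 of 3524 spleen cells in Round 1 (6.67%, exact 95% binomial interval 5.87 to 7.54) and 232 of 2430 in Round 2 (9.55%, interval 8.41 to 10.8), which is 467 of 5954 spleen cells and part of 24117 cells kept in 6 libraries. They are called Cxcr6+ Cx3cr1- Ccr7- spleen cells, and the remaining cells of the same library are called the other spleen cells. Because the UMIs of the 3 genes chose the cells, the levels of Cxcr6, Cx3cr1 and Ccr7 are given as a description without a test.

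The study asked which states and clones of islet-reactive CD8 T cells occur in the spleen and in the pancreatic islets before diabetes. Female prediabetic NOD/ShiLtJ mice between 10 and 15 weeks old were used, a strain in which T cells destroy the insulin-producing beta cells without any induction. In each of 2 independent rounds the organs of 10 mice were pooled, so each library was 1 pool of mice and no value could be assigned to a single animal. CD45.1+ lineage-negative CD8+ cells that bound the NRP-V7 Kd tetramer (IGRP+) were sorted from islets and spleen, with the spleen first depleted of other cells and gated on CD44, and tetramer-negative CD8 cells (IGRP-) were sorted from islets. All groups were of the same strain, sex and age range and no mouse was treated. Each cell suspension gave a 5′ single-cell RNA library and a T cell receptor (TCR) library.

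CXCR6 is the receptor for the membrane-bound chemokine CXCL16 and marks many activated and tissue-homing T cells. CX3CR1 binds fractalkine and is carried by circulating effector CD8 T cells, whereas CCR7 guides naive and central memory cells into lymphoid tissue. In chronic antigen exposure, CD8 T cells take up co-inhibitory receptors such as PD-1 and LAG-3 under the transcription factor TOX, while TCF-1, the product of Tcf7, keeps a pool of cells able to renew themselves.

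The kept spleen cells held 9607921 UMIs in Round 1 and 6907642 in Round 2, of which the Cxcr6+ Cx3cr1- Ccr7- cells held 618720 and 678493. Their depth was close to that of the other spleen cells, with a median of 2538 UMIs per cell in Round 1 against 2592, and 2783.5 in Round 2 against 2762.5. Mitochondrial genes took a median of 2.13% and 1.37% of their UMIs, against 2.36% and 1.43%. The 2 spleen libraries shared 10 cell barcodes, and no pair of a spleen library with another library shared more than 1.03% of the cells of the smaller one. Levels below are counts per 1000000 UMIs (CPM), summed over the cells of a fraction within a library.

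Most of the cells met the rule by 1 molecule. In Round 1, 171 of the 235 cells carried exactly 1 Cxcr6 UMI and 64 carried 2 or more, and in Round 2 the numbers were 146 and 86. Just outside the rule lay 90 cells in Round 1 and 68 in Round 2 with a Cxcr6 UMI and exactly 1 Cx3cr1 UMI, and 23 and 31 cells with a Cxcr6 UMI and exactly 1 Ccr7 UMI. Pdcd1 stood at 51.3 CPM in Round 1 and 59.8 in Round 2 in the cells with 1 Cxcr6 UMI, at 89.6 and 69.1 in those with 2 or more, and at 47.8 and 52.7 in the cells with 0 UMIs of all 3 genes. Tcf7 differed in direction between the rounds, at 111 CPM with 2 or more Cxcr6 UMIs against 235 with 1 in Round 1, and at 342 against 268 in Round 2.

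Free RNA in a droplet can give a cell single UMIs of a gene it does not express. The share of cells with a Cxcr6 UMI was therefore compared with that in Ccr7+ cells. Whether the Ccr7+ cells lack the gene was not tested. Among spleen cells with a Ccr7 UMI and no Cx3cr1 UMI, a Cxcr6 UMI was seen in 6.00% of 600 cells in Round 1 (exact interval 4.24 to 8.21, median 3326 UMIs) and in 13.9% of 452 cells in Round 2 (interval 10.9 to 17.5, median 3603.5 UMIs). Among cells with neither Cx3cr1 nor Ccr7 UMIs, from which the Cxcr6+ Cx3cr1- Ccr7- cells came, the share was 11.3% in Round 1 (interval 9.96 to 12.7, median 2513 UMIs) and 17.7% in Round 2 (interval 15.6 to 19.8, median 2626 UMIs). After every cell was thinned to 1000 UMIs the shares were 1.51% against 5.99% in Round 1 and 5.54% against 8.72% in Round 2. In Round 2 the unthinned intervals overlapped. In Round 1 they did not, but 6.00% of the Ccr7+ cells still had a Cxcr6 UMI. In neither round is the number of Cxcr6+ Cx3cr1- Ccr7- cells read as a number of expressing cells.

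Cxcr6 (mm10 chr9:123806475-123811760, plus strand) stood at 541 CPM in both rounds, against 29.1 CPM in Round 1 and 51.2 in Round 2 in the other spleen cells. In tetramer-positive islet cells chosen by the same 3 genes, 508 of 1204 cells in Round 1 (42.2%) and 676 of 1598 in Round 2 (42.3%), it stood at 878 and 1264 CPM. By the same rule 6.67% and 9.55% of spleen cells were chosen, so the share was lower in spleen in both rounds, although the islet cells were also deeper, with a median of 4209.5 and 4538.5 UMIs.

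Beside Cxcr6, the 3 markers proposed for these cells were genes of chronic stimulation, and none of them passed the test against all the other spleen cells. Pdcd1, which encodes the co-inhibitory receptor PD-1 (mm10 chr1:94038305-94052553, minus strand), stood at 63.0 CPM in Round 1 and 63.4 in Round 2, against 40.4 and 46.7 in the other spleen cells. Its log2 difference was 0.49 ± 0.18 (SE, n = 2 libraries per fraction) and did not pass the test (edgeR quasi-likelihood test with the library as a block, Benjamini-Hochberg adjusted p = 0.249). Lag3, a co-inhibitory receptor for MHC class II (mm10 chr6:124904361-124911705, minus strand), stood at 48.5 and 36.8 CPM against 27.9 and 32.1. The values were higher than in the other spleen cells in both rounds, but the log2 difference of 0.46 ± 0.22 missed the threshold (edgeR adjusted p = 0.535). Tox (mm10 chr4:6686353-6991557, minus strand) stood at 183 and 137 CPM against 173 and 153, above the other spleen cells in Round 1 and below them in Round 2, with a log2 difference of -0.08 ± 0.11 (edgeR adjusted p = 0.929). The cells are therefore named by their 3 rule genes and not as exhausted cells.

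The distance to the islets was far larger. In the islet cells chosen by the same genes, Pdcd1 stood at 711 CPM in Round 1 and 895 in Round 2, and the spleen cells were lower, with a log2 difference of -3.72 ± 0.29 (edgeR adjusted p = 0.00207, n = 2 libraries per tissue). Lag3 stood at 390 and 618 CPM in those islet cells, a log2 difference of -3.60 ± 0.33 (edgeR adjusted p = 0.00313). Both genes were lower in spleen in both rounds, as were 33.6% of all genes tested. Tox stood at 320 and 277 CPM in the islet cells, also above spleen in both rounds, and its log2 difference of -0.96 ± 0.30 missed the threshold (edgeR adjusted p = 0.0825). With the round as a block the Tox difference of -0.97 passed (edgeR adjusted p = 4.793e-07). The blocked fit had 1 residual degree of freedom and shared its variation across genes, so the spread of Tox between pools had no weight.

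**Figure D1:**
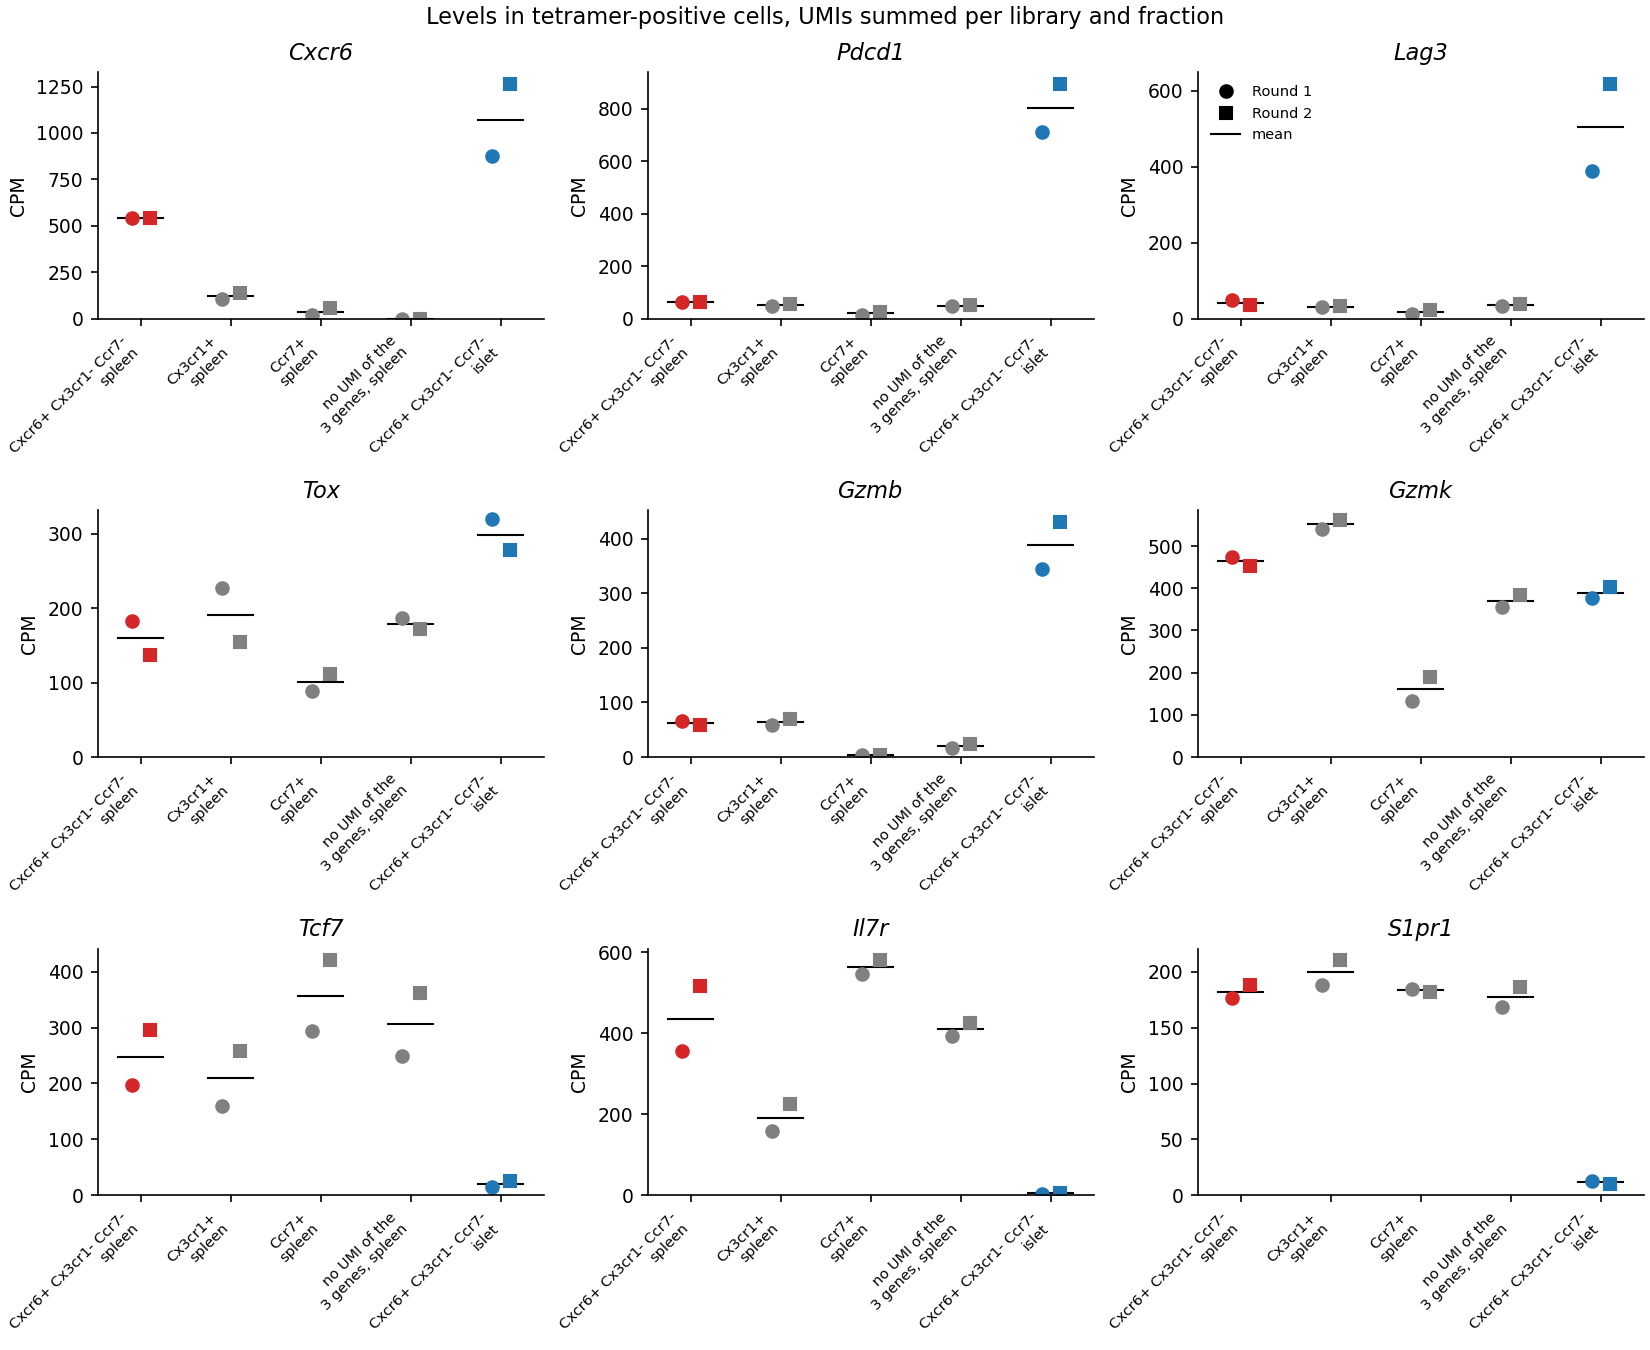
Levels of 9 genes in CPM (y axis) in 4 fractions of tetramer-positive spleen cells and in islet cells chosen by the same 3 genes (x axis). Circles are Round 1, squares Round 2 and lines the mean of the 2 libraries. Pdcd1 and Lag3 lay near the bottom of the axis in every spleen fraction, while Il7r and S1pr1 were higher in every spleen fraction than in the islet cells.

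Against the other spleen cells, 80 of 9813 genes tested passed the threshold (0.815%, edgeR adjusted p under 0.05), of which 43 were higher (0.438%) and 37 lower (0.377%). All 43 higher genes and 36 of the 37 lower genes had the same direction in both libraries. The higher genes were led by Ifitm1, Lilrb4a, Cd160, Cish, Gzmb, Hip1, S100a4, Jaml, Cd7, Sytl2, Tcrg-C2 and Ccr2. Lower genes were led by Trbv14, Ramp1, Actn1, Acss2, Lyst, Igfbp4, Dapl1, Rgs10, Lef1, S1pr5 and Kif1b. The 2 libraries per fraction are separate pools of mice, and the fit leaves 1 residual degree of freedom per gene. The prior degrees of freedom were infinite, so these p-values and standard errors rest on variation that edgeR shares across genes. The spread of each gene between the pools had no weight in them. Dapl1, for example, gave log2 -2.17 in Round 1 and -0.38 in Round 2 beside a standard error of 0.19.

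The calls depended on how the cells were chosen and tested. When each cell was thinned to 1000 UMIs for both the rule and the test, 160 and 154 cells met the rule and 4 genes passed, S100a4, S100a6, Ccl4 and Trgv2, the last named after its values were seen. Of the 80 genes 73 could still be tested, and 72 of these kept their direction. The difference in Gzmb was then 0.41 (edgeR adjusted p = 0.979) and that in Jaml 0.059 (edgeR adjusted p = 0.995). Cd160 (log2 1.47, edgeR adjusted p = 0.415), Ccr2 (log2 0.98, edgeR adjusted p = 0.0577), Id2 (log2 0.48, edgeR adjusted p = 0.738), Fasl (log2 0.59, edgeR adjusted p = 0.797) and Lef1 (log2 -0.81, edgeR adjusted p = 0.425) were no longer called either. With at least 2 Cxcr6 UMIs required, 22 of the 80 stayed called, Cd160, Ccr2, Id2 and Lef1 among them, while Gzmb (log2 1.11, edgeR adjusted p = 0.146) and Fasl (log2 0.60, edgeR adjusted p = 0.312) did not pass. Without the library as a block 0 genes passed in edgeR, with 231 at an unadjusted p under 0.05, and DESeq2 with the block called 14.

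Of the 11 listed co-inhibitory receptors that were tested, Cd160 was the one called gene. Cd160, a receptor for HVEM on natural killer (NK) and CD8 T cells (mm10 chr3:96798763-96829351, minus strand), stood at 50.1 CPM in Round 1 and 59.0 in Round 2, against 16.9 and 23.1. It was higher in both rounds, and the log2 difference was 1.40 ± 0.22 (edgeR adjusted p = 2.12e-07). It rested on 23 and 24 cells with a UMI. Over the 11 co-inhibitory genes tested the median log2 difference was 0.58, beside -0.0036 over all genes, and 10 of the 11 were above 0 in both rounds, as were 31.2% of all genes tested. Entpd1, which encodes the ectonucleotidase CD39, stood at 22.6 and 42.7 CPM against 18.0 and 19.4 without passing the test (edgeR adjusted p = 0.207), and Ctla4, a receptor that competes for the B7 ligands, stood at 37.2 and 32.4 against 20.7 and 24.2 (edgeR adjusted p = 0.427). Of 16 exhaustion and activation transcription factors 1 was called. This was Id2 (mm10 chr12:25093799-25097140, minus strand), an inhibitor of E proteins that supports effector differentiation, at 291 and 314 CPM against 167 and 171, a log2 difference of 0.79 ± 0.09 (edgeR adjusted p = 9.26e-14).

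Of 14 cytotoxic granule genes, 2 rose and 0 fell. Gzmb (mm10 chr14:56258838-56262260, minus strand), which encodes granzyme B, a protease that triggers death of target cells, stood at 66.3 and 59.0 CPM against 22.8 and 29.1. It was higher in both rounds, by 1.23 ± 0.20 on the log2 scale (edgeR adjusted p = 8.76e-07), with a UMI in 25 and 20 cells. The call was lost with at least 2 Cxcr6 UMIs required, where the log2 difference was 1.11, and after thinning, where it was 0.41. Fasl, the ligand of the death receptor FAS, stood at 131 and 136 CPM against 81.4 and 78.0, a log2 difference of 0.70 ± 0.13 (edgeR adjusted p = 2.01e-05). Granzyme A moved unevenly, since Gzma stood at 360 CPM in Round 1 and 193 in Round 2 against 258 and 322, above the other cells in one round and below them in the other (edgeR adjusted p = 0.81). Gzmk, another granzyme gene, stood at 475 and 452 CPM against 347 and 380, and its log2 difference of 0.31 ± 0.09 missed the threshold (edgeR adjusted p = 0.0605).

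Among 9 cytokine and chemokine genes, 3 rose and 1 fell. Ccl4, an inflammatory chemokine, stood at 1964 and 1095 CPM against 1071 and 771, a log2 difference of 0.65 ± 0.09 (edgeR adjusted p = 2.44e-11). Ccl3, its relative, stood at 286 and 193 CPM against 162 and 132 (log2 0.65 ± 0.10, edgeR adjusted p = 1.4e-07). Both were higher in each round, although the levels of Ccl4 in the 2 rounds differed by as much as the fractions did. Ifng, the antiviral and macrophage-activating cytokine, stood at 540 and 340 CPM against 361 and 248 (log2 0.48 ± 0.09, edgeR adjusted p = 4.26e-05). Xcl1, a chemokine that draws cross-presenting dendritic cells, went the other way, at 33.9 and 51.6 CPM against 66.2 and 67.6 (log2 -0.68 ± 0.18, edgeR adjusted p = 0.0319).

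Of 10 chemokine and egress receptors tested, 3 rose, Ccr2 and Cxcr3 among them, and 3 fell, with a median log2 difference of -0.09. Ccr2, the receptor for CCL2 (mm10 chr9:124101950-124113557, plus strand), stood at 147 and 175 CPM against 80.3 and 93.8, with a UMI in 72 and 79 cells. Its log2 difference of 0.85 ± 0.12 passed (edgeR adjusted p = 8.95e-10). Cxcr3, which binds the interferon-induced chemokines, stood at 200 and 374 CPM against 123 and 265, with a larger step between rounds than between fractions (log2 0.54 ± 0.10, edgeR adjusted p = 1.23e-05). S1pr5, which lets effector cells leave tissue, stood at 30.7 and 32.4 CPM against 40.6 and 71.1 (log2 -0.87 ± 0.21, edgeR adjusted p = 0.00734), and Cxcr5, the receptor for B cell follicles, at 8.08 and 2.95 against 16.1 and 19.9 (log2 -1.78 ± 0.47, edgeR adjusted p = 0.0272). Ccr9, the gut-homing receptor, had 0 UMIs and was at least 3.41-fold lower, against a floor of 3 UMIs over the group. S1pr1, the main egress receptor, was at 176 and 189 CPM against 178 and 193.

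Of 12 circulating effector genes 3 rose, S100a4, S100a6 and Itgb1, and 1 fell, S1pr5, with a median log2 difference of 0.089. S100a4 and S100a6, calcium-binding proteins of activated and effector cells, had 557 and 2493 UMIs in the cells over both rounds. S100a4 (mm10 chr3:90603771-90606045, plus strand) stood at 420 and 438 CPM against 195 and 225, a log2 difference of 0.99 ± 0.09 (edgeR adjusted p = 4.44e-25), with a UMI in 105 and 102 cells. S100a6 stood at 1907 and 1935 CPM against 1057 and 1111 (log2 0.78 ± 0.09, edgeR adjusted p = 3.83e-16). Both genes were higher in both rounds, as were 31.2% of all genes tested. Cd7, a T cell surface protein, stood at 705 and 730 CPM against 346 and 380 (log2 0.94 ± 0.08), and Cish, an inhibitor of cytokine signaling, at 42.0 and 31.0 against 10.9 and 16.7 (log2 1.36 ± 0.28, edgeR adjusted p = 0.000372). Lilrb4a, an inhibitory immunoglobulin-like receptor, stood at 16.2 and 33.9 CPM against 6.34 and 7.87 and rested on 10 and 19 cells with a UMI (log2 1.77 ± 0.35, edgeR adjusted p = 0.00023). Jaml, an adhesion molecule, stood at 66.3 and 97.3 CPM against 32.6 and 48.3 (log2 0.98 ± 0.17). Itgb1, the integrin beta 1 chain, was higher as well, at 199 and 466 CPM against 168 and 300, and here the difference between rounds exceeded that between fractions (log2 0.45 ± 0.09, edgeR adjusted p = 0.000512).

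A few calls rested on very few cells. Ifitm1, the higher gene with the largest fitted difference, had 10 UMIs in 1 cell in Round 1 and 17 UMIs in 3 cells in Round 2. Its 27 UMIs therefore came from 4 of 467 cells. It was the one higher gene of 43 with a UMI in fewer than 10 of the cells. Of the 37 lower genes, 8 had at most 3 UMIs in the cells. The gene for the beta chain segment Trbv14 had 0 UMIs in Round 1 and 3 UMIs in 1 cell in Round 2, against 228 and 94 UMIs, and was lower by a ratio of 9.15 with a counting interval of 3.10 to 44.6.

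**Figure D2:**
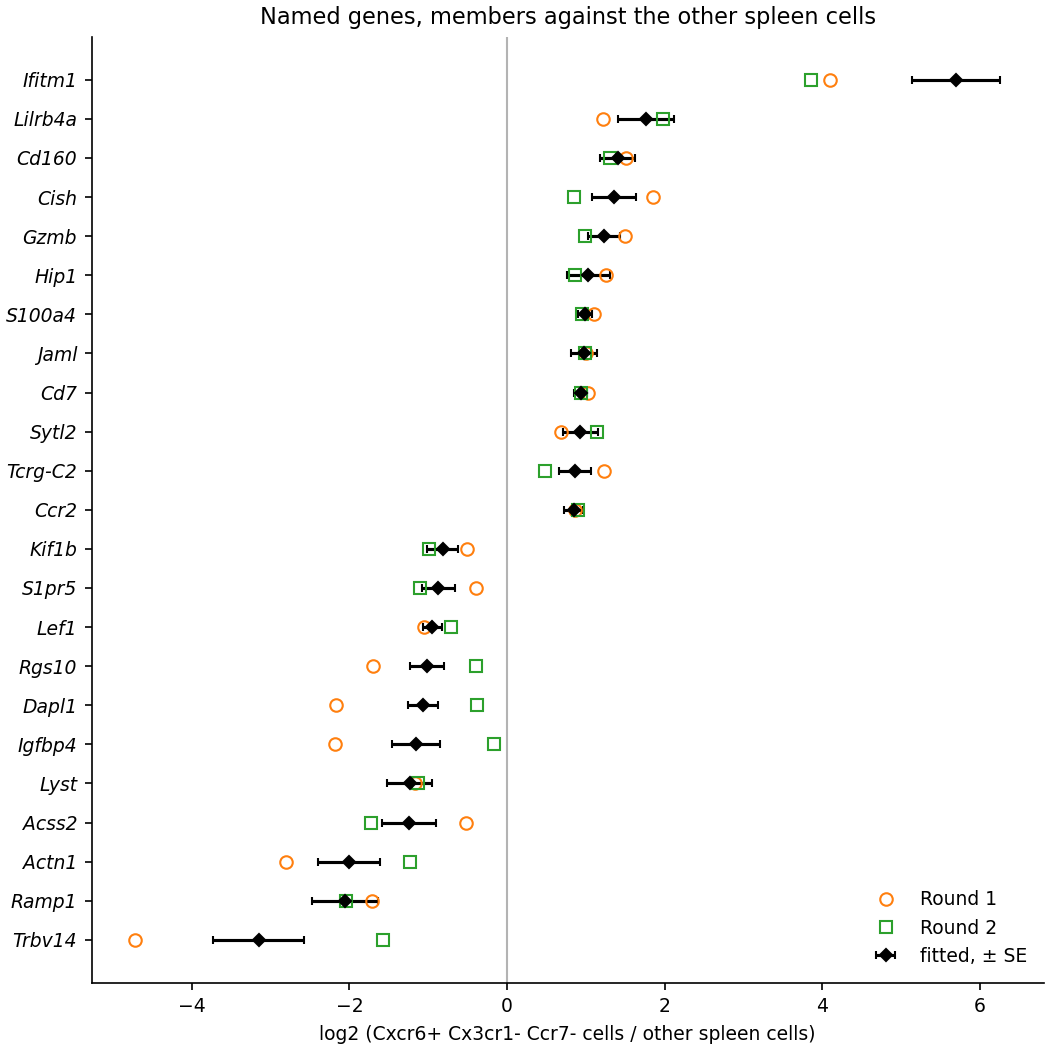
Log2 ratio of Cxcr6+ Cx3cr1- Ccr7- cells to the other spleen cells (x axis) for 23 of the genes that led the comparison in either direction (y axis). Open circles are Round 1, open squares Round 2, and black diamonds with bars the fitted value with its standard error. Both rounds lie on the same side of 0 for each gene shown, and the rounds stand furthest apart for Trbv14, Igfbp4 and Dapl1.

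Genes of naive and memory cells were lower in part, and the fall depended on which cells stood on the other side. Of 18 stemness and memory genes tested, 5 fell and 0 rose, with a median log2 difference of -0.26. Lef1, a partner of TCF-1 (mm10 chr3:131110471-131224356, plus strand), stood at 110 and 100 CPM against 229 and 164 (log2 -0.95 ± 0.12, edgeR adjusted p = 2.44e-11). Dapl1 was uneven, at 16.2 CPM in Round 1 and 56.0 in Round 2 against 76.4 and 73.2 (log2 -1.07 ± 0.19, edgeR adjusted p = 9.56e-06). The genes of self-renewal and survival were not called, since Tcf7 stood at 197 and 296 CPM against 240 and 352 (log2 -0.31 ± 0.10, edgeR adjusted p = 0.142) and Il7r, the receptor for the survival cytokine IL-7, at 356 and 516 against 375 and 418 (edgeR adjusted p = 0.873).

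The other spleen cells hold all the Ccr7+ cells, which the rule kept out of the Cxcr6+ Cx3cr1- Ccr7- cells, so the comparison was repeated against the 1846 and 1081 cells with 0 UMIs of the 3 genes. Here 62 of 9269 genes passed (0.669%, edgeR adjusted p under 0.05), 39 higher (0.421%) and 23 lower (0.248%). Lef1 was still lower in the Cxcr6+ Cx3cr1- Ccr7- cells (log2 -0.66, edgeR adjusted p = 0.0017). Dapl1 (log2 -0.19, edgeR adjusted p = 0.914), Rgs10 (log2 -0.57, edgeR adjusted p = 0.453), S1pr5 (log2 -0.31, edgeR adjusted p = 0.787), Ramp1 (log2 -1.09, edgeR adjusted p = 0.455) and Igfbp4 (log2 -0.01, edgeR adjusted p = 0.998) no longer passed. Of the 18 stemness and memory genes 3 fell, Lef1 and Id3, an inhibitor of E proteins in memory cells, among them.

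Of 14 cytotoxic granule genes 3 were higher here and 0 lower, and of 10 co-inhibitory receptors 1 was higher and 0 lower. Gzmb stood at 16.9 and 23.0 CPM in the cells with 0 UMIs of the 3 genes, and the log2 difference was 1.62 ± 0.22 (edgeR adjusted p = 5.89e-08). Cd160 stood at 19.6 and 24.4 CPM there (log2 1.25 ± 0.23, edgeR adjusted p = 0.000157). The cells with 0 UMIs of the 3 genes were lower in both rounds for each of these genes. Cish (log2 1.51 ± 0.29, edgeR adjusted p = 0.000372), Lilrb4a (log2 1.79 ± 0.37, edgeR adjusted p = 0.0012) and Cd226, an activating receptor of T and NK cells (log2 1.30 ± 0.23, edgeR adjusted p = 0.000108), were among the leading higher genes. Xcl1 stood at 85.7 and 105 CPM and was lower in the Cxcr6+ Cx3cr1- Ccr7- cells (log2 -1.17 ± 0.19, edgeR adjusted p = 1.50e-05). Pdcd1 (log2 0.27 ± 0.18, edgeR adjusted p = 0.738), Lag3 (log2 0.22 ± 0.22, edgeR adjusted p = 0.866) and Tox (log2 -0.21 ± 0.12, edgeR adjusted p = 0.669) were again not called.

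Against the 791 and 589 spleen cells with a Cx3cr1 UMI and no Ccr7 UMI, 77 of 9269 genes passed (0.831%, edgeR adjusted p under 0.05), 44 higher (0.475%) and 33 lower (0.356%). Of 12 circulating effector genes 6 were lower and 1 higher, and of 18 stemness and memory genes 6 were higher and 1 lower. Gzma stood at 731 and 992 CPM in the Cx3cr1+ cells against 360 and 193 (log2 -1.60 ± 0.12, edgeR adjusted p = 7.06e-20). S1pr5 stood at 111 and 181 CPM against 30.7 and 32.4 (log2 -2.18 ± 0.19, edgeR adjusted p = 2.61e-15), and Klrg1, an inhibitory lectin of terminal effector cells, at 154 and 181 against 61.4 and 66.3 (log2 -1.34 ± 0.16, edgeR adjusted p = 2.34e-10). Il7r moved the other way, at 159 and 224 CPM in the Cx3cr1+ cells against 356 and 516 (log2 1.25 ± 0.11, edgeR adjusted p = 2.61e-15). Each of these 4 genes had the same direction in both rounds. Of all genes tested, 21.5% were above 0 in both rounds and 33.8% below. Gzmb did not separate them, at 59.3 and 68.8 CPM in the Cx3cr1+ cells (log2 0.01 ± 0.19, edgeR adjusted p = 0.996), and Cd160 was higher than in the Cx3cr1+ cells at 20.1 and 21.2 CPM (log2 1.43 ± 0.25, edgeR adjusted p = 0.00014). Of 10 co-inhibitory receptors tested 1 was higher and 0 lower, and of 16 exhaustion and activation transcription factors 0 were higher and 1 lower. A Pdcd1 UMI was seen in 11.9% and 13.2% of the Cx3cr1+ cells against 15.3% and 15.9%. Lag3 was seen in 6.95% and 7.98% against 11.5% and 9.91%, and Tox in 38.3% and 31.9% against 35.7% and 29.3%. These shares carry no test.

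Against the 600 and 452 spleen cells with a Ccr7 UMI and no Cx3cr1 UMI the contrast was the widest within the spleen, with 799 of 9269 genes called (8.62%, edgeR adjusted p under 0.05), 386 higher (4.16%) and 413 lower (4.46%). Of 12 circulating effector genes 11 were higher, of 14 cytotoxic granule genes 10 were higher and 1 lower, and of 18 stemness and memory genes 11 were lower. Gzma stood at 5.26 and 8.60 CPM in the Ccr7+ cells (log2 5.13 ± 0.26, edgeR adjusted p = 1.18e-31) and Gzmb at 2.87 and 3.68 (log2 4.04 ± 0.34, edgeR adjusted p = 2.24e-17). Here the 3 markers were higher too. Pdcd1 stood at 14.3 and 27.6 CPM in the Ccr7+ cells (log2 1.43 ± 0.24, edgeR adjusted p = 1.3e-06), Lag3 at 12.9 and 23.3 (log2 1.07 ± 0.27, edgeR adjusted p = 0.00395) and Tox at 88.9 and 112 (log2 0.49 ± 0.14, edgeR adjusted p = 0.0154). This was not particular to the Cxcr6+ Cx3cr1- Ccr7- cells. In the cells with 0 UMIs of the 3 genes Pdcd1 stood at 47.8 and 52.7 CPM and Lag3 at 32.9 and 37.9. Tox stood at 186 and 171 CPM there, and all 3 markers were above the Ccr7+ cells in both rounds. Il7r was lower than in the Ccr7+ cells, which stood at 547 and 580 CPM (log2 -0.57 ± 0.10, edgeR adjusted p = 3.18e-06), so its level lay between those of the Cx3cr1+ and the Ccr7+ cells in both rounds. The 4 spleen comparisons share the Cxcr6+ Cx3cr1- Ccr7- cells and are not independent of each other.

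The largest contrast was with the islets. Against the islet cells chosen by the same 3 genes, 898 of 8679 genes passed (10.3%, edgeR adjusted p under 0.05, no block), 450 higher in spleen (5.18%) and 448 lower (5.16%). The rounds pair the tissues, since both came from the same pools of mice, and with the round as a block 3222 genes passed, all 898 included. In that blocked fit the spread of each gene between the pools had no weight, so its p-values do not measure it. Tissue and isolation cannot be told apart here, because islets were digested with collagenase and spleens were processed mechanically. RNA of the islet tissue moved with this contrast. The 11 endocrine and exocrine markers summed to 0 UMIs in the Cxcr6+ Cx3cr1- Ccr7- spleen cells of both rounds. They summed to 3.11 and 2.25 CPM in the other spleen cells. In the islet cells they summed to 19.4 CPM in Round 1 and 155 in Round 2, led by Clps and Cela2a, with Gcg, Iapp and Ppy at 0. Clps, which encodes pancreatic colipase, was the 1 marker tested and was called lower in spleen (edgeR adjusted p = 0.0476), with 0 UMIs in both spleen libraries and 19 and 83 in islets. The part of this RNA in the other islet differences was not tested.

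Of 10 co-inhibitory receptors tested, 6 were lower and 1 higher in the spleen cells, with a median log2 difference of -2.46 beside 0.03 over all genes. Tigit, a receptor for CD155, stood at 154 and 113 CPM in spleen against 703 and 812 in islets (log2 -2.55 ± 0.31, edgeR adjusted p = 0.00603). Havcr2, which encodes TIM-3, stood at 3.23 and 2.95 CPM against 86.9 and 165, so that 2 UMIs in each spleen library set its spleen level. The higher gene was Vsir, which encodes the checkpoint protein VISTA, at 123 and 153 CPM against 38.4 and 48.5 (log2 1.61 ± 0.24, edgeR adjusted p = 0.0095). Cd160, the listed co-inhibitory gene called within the spleen, did not pass here, at 30.6 and 41.3 CPM in islets (log2 0.54 ± 0.26, edgeR adjusted p = 0.223, and 0.0602 with the round as a block). Of 17 exhaustion and activation transcription factors, 8 were lower and 0 higher, and with the round as a block 13 were lower and 1 higher.

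Of 19 stemness and memory genes 12 were higher in the spleen cells and 2 lower, with a median of 2.60. Of 13 circulating effector genes 3 were higher and 1 lower (7 and 4 with the round as a block), and of 9 chemokine and egress receptors 3 were higher and 0 lower (5 and 3 with the block). Il7r stood at 356 and 516 CPM in spleen against 3.36 and 6.06 in islets (log2 6.43 ± 0.35, edgeR adjusted p = 0.000794), and Tcf7 at 197 and 296 against 14.2 and 24.5 (log2 3.60 ± 0.31, edgeR adjusted p = 0.00282). S1pr5 had 0 UMIs in both islet libraries and was at least 64.7-fold higher in spleen, against a floor of 3 UMIs over the group. This egress transcript was therefore not detectable in the islet cells at this depth. Klf2, the factor that drives S1pr1, stood at 716 and 1335 CPM against 37.7 and 95.3 (log2 3.90), and S1pr1 at 176 and 189 against 13.1 and 9.82 (log2 3.93).

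Effector genes split. Gzmb was lower in spleen at 66.3 and 59.0 CPM against 345 and 430 (log2 -2.68 ± 0.27, edgeR adjusted p = 0.00373), while Gzma was higher at 360 and 193 against 78.3 and 54.8 (log2 2.00 ± 0.41, edgeR adjusted p = 0.0269), and Gzmk stood at 475 and 452 against 377 and 402 without a call (log2 0.19 ± 0.25, edgeR adjusted p = 0.677, and 0.386 with the round as a block). Ifng was higher in spleen, at 540 and 340 CPM against 95.9 and 91.8 (log2 2.18 ± 0.33, edgeR adjusted p = 0.0106), as were Ccl4 (log2 1.90) and Cxcr3 (log2 2.08). Xcl1 stood at 33.9 and 51.6 CPM against 246 and 227 and was lower (log2 -2.54). Of 18 proliferation genes 13 were lower in spleen and 0 higher, with a median of -2.32. Ccna2, which encodes cyclin A2, had 0 UMIs in the spleen cells and was at least 23.3-fold lower, and Mki67, the common marker of cycling cells, stood at 11.3 and 14.7 CPM against 83.6 and 67.8 (log2 -2.61 ± 0.35, edgeR adjusted p = 0.00716). Against the other spleen cells, 0 of 14 proliferation genes were called.

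Whether a difference within the spleen was also present within the islets was tested directly, as the spleen difference minus the islet difference. Of 10201 genes 262 passed (2.57%, edgeR adjusted p under 0.05), 145 above 0 (1.42%) and 117 below (1.15%). Of 14 cytotoxic granule genes 6 were below 0 and 0 above, and of 19 stemness and memory genes 7 were above 0 and 1 below. Pdcd1 gave -0.11 ± 0.18 (edgeR adjusted p = 0.873), Lag3 -0.16 ± 0.21 (edgeR adjusted p = 0.84) and Tox -0.04 ± 0.13 (edgeR adjusted p = 0.946), and none of the 3 passed. Gzmb gave -1.46 ± 0.18 (edgeR adjusted p = 2.18e-06), since its step from 53.1 and 64.2 CPM to 345 and 430 within the islets was larger than that within the spleen. Il2ra, which encodes the high-affinity IL-2 receptor chain and marks regulatory T cells, was also called (3.17 ± 0.82, edgeR adjusted p = 0.0255), on 1 and 8 UMIs in the spleen cells.

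**Figure D3:**
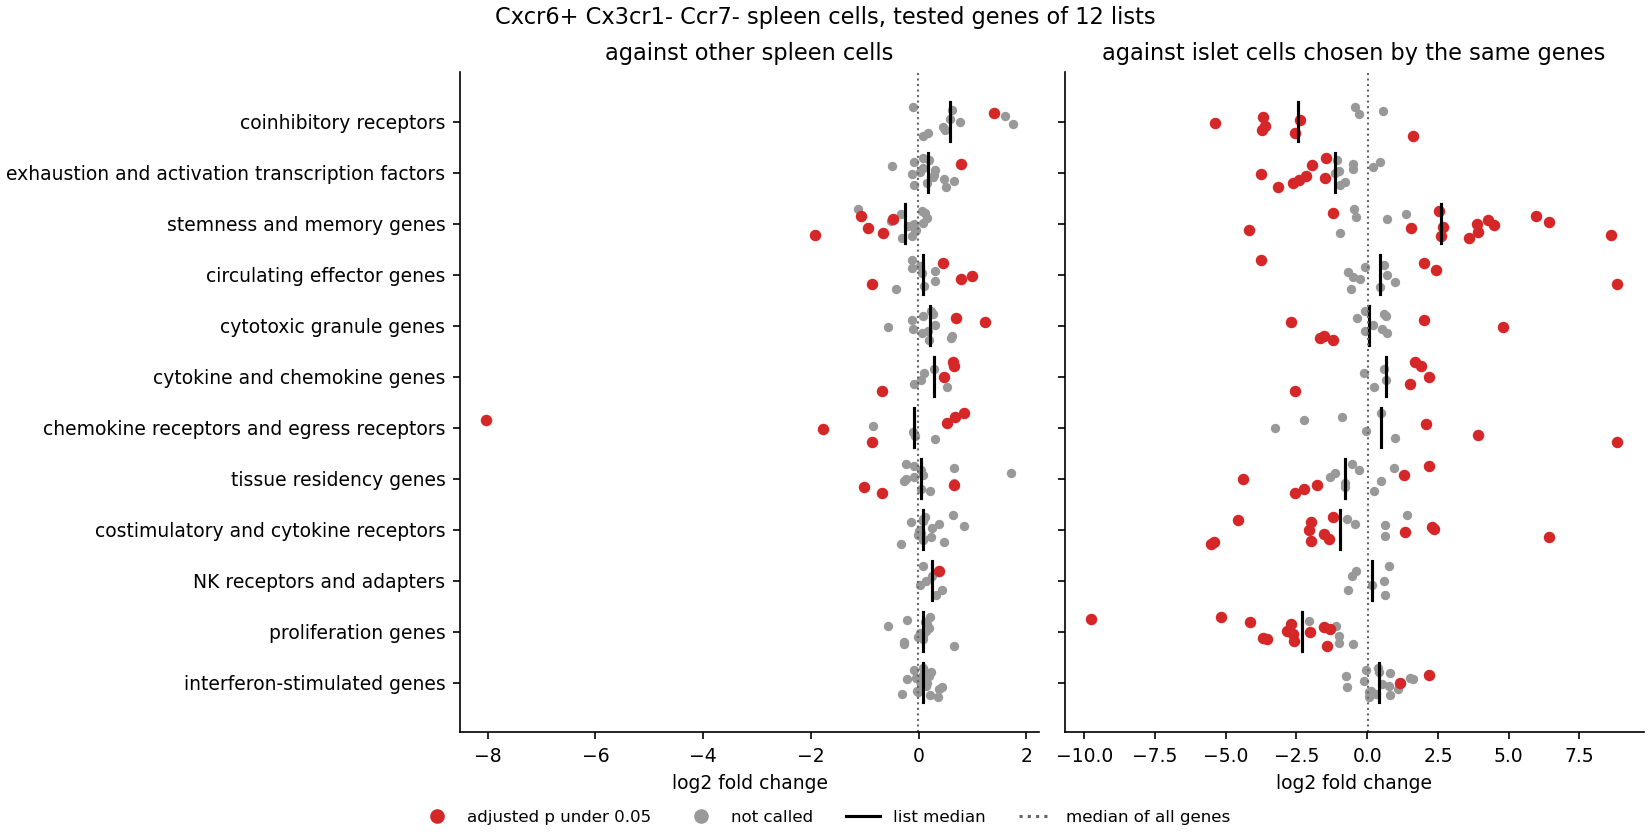
Log2 fold change (x axes, with different ranges) of the tested genes of 12 lists (y axis), for Cxcr6+ Cx3cr1- Ccr7- spleen cells against the other spleen cells (left) and against islet cells chosen by the same genes (right, no block). Red points passed an edgeR adjusted p under 0.05, grey points did not, black bars are list medians and the dotted line is the median of all genes. On the right the co-inhibitory and proliferation lists lie mostly to the left of the dotted line (medians -2.46 and -2.32) and the stemness list mostly to the right (2.60); the point near -8 on the left is Ccr9, with 0 UMIs in the cells, so that its fitted value is no bound.

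Some markers of other lineages had 0 UMIs in the cells, and others, Ighm, Cst3 and Eomes among them, did not. Of the B cell markers, Cd79a, Ms4a1, Ighd, Iglc2 and H2-Aa had 0 UMIs in the cells, and the whole list summed to 50.1 CPM in Round 1 and 44.2 in Round 2 against 81.2 and 69.4 in the other spleen cells. Its most abundant gene, Ighm, was called lower, at 38.8 and 33.9 CPM against 68.0 and 52.7 (log2 -0.78 ± 0.20, edgeR adjusted p = 0.0161). Cd4, Foxp3 and Cd40lg of the CD4 and regulatory T cell list were at 0. That list summed to 6.46 and 11.8 CPM against 4.00 and 3.85, higher in both rounds, with 1 and 8 UMIs of Il2ra in the cells. None of its genes passed the count filter. Ncr1, Fcer1g and Gata2 of the NK cell list were also at 0. The NK cell list summed to 233 and 237 CPM against 197 and 294, with Eomes as its top gene. The myeloid list summed to 322 and 315 CPM against 282 and 305, led by Cst3. Islet endocrine and exocrine genes had no UMI in the Cxcr6+ Cx3cr1- Ccr7- cells, against 3.11 and 2.25 CPM in the other spleen cells.

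Innate-like and gamma-delta markers summed to 157 and 91.4 CPM against 76.1 and 57.5 and were the one of these lists with genes called higher, 2 of 3 tested. The constant segment Tcrg-C2 of the gamma chain stood at 69.5 and 42.7 CPM against 29.1 and 30.2 (log2 0.87 ± 0.20, edgeR adjusted p = 0.00526) and Tcrg-C4, the most abundant of the list with 74 UMIs, at 77.6 and 38.3 against 40.9 and 23.1 (log2 0.80 ± 0.20, edgeR adjusted p = 0.01). Trgv2, outside the list and named after its values were seen, was also higher (log2 0.79, edgeR adjusted p = 4.17e-15). After thinning Trgv2 stayed called (log2 0.85), whereas Tcrg-C2 (log2 0.91, edgeR adjusted p = 0.797) and Tcrg-C4 (log2 0.78, edgeR adjusted p = 0.838) did not pass. Zbtb16, Il23r, Il17a, Trdv4, Sox13 and Blk were at 0 UMIs, and paired alpha and beta chains were found in 51.9% and 72.8% of the cells, beside 46.8% and 68.2% of the other spleen cells. The part of gamma-chain transcripts in the other differences was not tested.

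The cells were not uniform in what they carried. Of 8 co-inhibitory genes (Pdcd1, Lag3, Tigit, Ctla4, Havcr2, Cd160, Cd244a and Entpd1), 43.8% of the cells in Round 1 and 42.2% in Round 2 had a UMI of none, against 57.1% and 55.6% of the other spleen cells. A UMI of 3 or more of them was seen in 12 cells (5.11%, exact interval 2.67 to 8.75) and 14 cells (6.03%, interval 3.34 to 9.92), against 1.76% and 2.09%. In the islet cells chosen by the same genes the share was 85.8% and 93.3%. At 1000 UMIs per cell, with 5 and 1 of the spleen cells and 6 and 11 of the islet cells left out as too shallow, the share with 3 or more was 0.435% and 0% in the Cxcr6+ Cx3cr1- Ccr7- spleen cells, 0.0621% and 0.140% in the other spleen cells, and 28.7% and 44.4% in the islet cells. The order between spleen and islet held at equal depth, whereas within the spleen the thinned share rested on 1 cell and its order differed between the rounds.

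**Figure D4:**
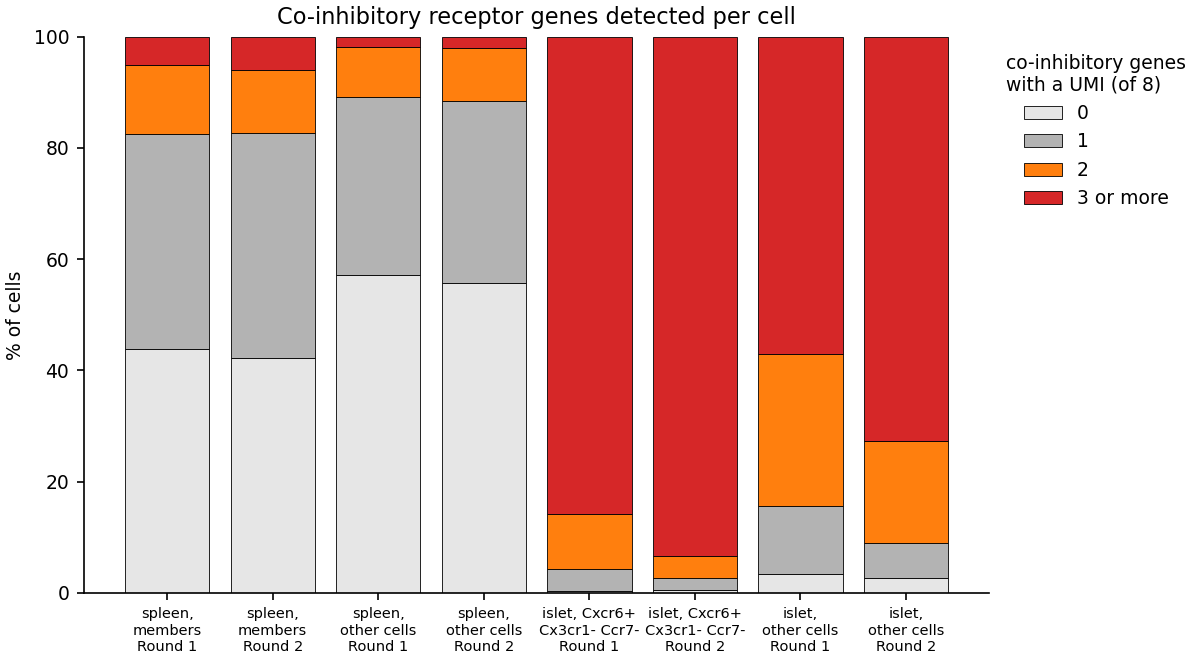
Share of cells (y axis, %) by the number of 8 co-inhibitory receptor genes with at least 1 UMI, for the spleen cells that met the rule (labelled members), the other spleen cells, and islet tetramer-positive cells split by the same rule, in each round (x axis). The red part, 3 or more genes, is 5.11% and 6.03% in the spleen cells that met the rule and 85.8% and 93.3% in the islet cells chosen by the same genes.

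A Pdcd1 UMI was found in 36 of the cells in Round 1 (15.3%) and 37 in Round 2 (15.9%), against 10.1% and 11.4% of the other spleen cells and 4.83% and 9.07% of the Ccr7+ cells. At 1000 UMIs per cell the shares were 4.78% and 4.76% against 4.90% and 3.97%, so no order is read from them. Of the Pdcd1+ cells 25.0% and 32.4% also had a Tcf7 UMI. A Gzmb UMI was found in 25 cells (10.6%) and 20 cells (8.62%), against 0.667% and 1.11% of the Ccr7+ cells, and after thinning the shares were 6.09% and 3.46%. The cells with a Gzmb UMI were at 1497 and 328 CPM of Gzma against 221 and 178 in those without, at 148 and 194 CPM of Klrg1 against 50.8 and 52.3, and at 88.9 and 209 CPM of Il7r against 388 and 550. An Il7r UMI was found in 35.3% and 50.0% of the cells. Those cells were deeper, with a median of 2999 and 3341 UMIs against 2316.5 and 2465, and stood at 31114 and 25720 CPM of Ccl5, a chemokine of effector and memory CD8 cells, against 47648 and 41378. Of the cells with a Gzmb UMI, 3 of 25 in Round 1 (12%) and 6 of 20 in Round 2 (30%) had an Il7r UMI too, below the share among all the cells in both rounds. These splits describe the cells and carry no test.

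The TCR gave a readout that the rule did not use. A clone is a set of cells with identical alpha and beta CDR3 nucleotide sequences, and it was taken from cells with 1 productive alpha and 1 productive beta chain, 122 of the 235 cells in Round 1 and 169 of the 232 in Round 2. The alpha segment TRAV16N was used by 118 of the 122 cells (96.7%) and 160 of the 169 (94.7%), against 86.3% and 90.3% of the other spleen cells. The differences were 10.4 and 4.41 percentage points, with a mean of 7.39, and the exact two-sided permutation test over libraries gave p = 0.333, the smallest that 2 against 2 allows. Both fractions came from the same libraries, and an exact permutation within libraries, chosen after the data were seen, gave p = 0.5, the smallest that 2 pairs allow, for these differences in TRAV16N, TRAV16N with TRAJ42 and TRBV13-3 and for those in clone size and islet sharing over all paired cells. TRAV16N with TRAJ42 was used by 73.8% and 91.1% against 67.2% and 86.5% (exact permutation p = 0.667), and TRBV13-3 by 77.0% and 84.0% against 72.1% and 78.7% (exact permutation p = 0.667). The invariant pairs TRAV11 with TRAJ18 and TRAV1 with TRAJ33 of NKT and MAIT cells were each in 0 of 122 and 0 of 169 cells, which allows a share of up to 2.98% and 2.16% (exact interval).

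Nearly all of these cells belonged to clones also sequenced in the islets of the same mice. In Round 1 94.3% and in Round 2 90.5% of them carried a clone found among tetramer-positive islet cells of the same round, against 81.9% and 86.2% of the other spleen cells, differences of 12.3 and 4.34 points (exact permutation p = 0.333). Clones of at least 2 spleen cells held 94.3% and 95.3% of them, against 84.1% and 89.7%. When clones of a single spleen cell were left out, the difference in islet sharing was 0.48 points and that in TRAV16N 0.024 points (exact permutation within libraries, p = 1 for both), so both lay in the single-cell clones among the other spleen cells. With each clone counted once per fraction, the difference was 56.9 points in islet sharing and 50.1 points in TRAV16N. This count follows clone size, since a larger clone is more likely to hold a cell that met the rule. Clones of at least 2 spleen cells were 78.6% of the clones on that side and 20.2% among the other spleen cells. No conclusion is drawn from it. A clone of the tetramer-negative islet cells was carried by 5 cells (4.10%) and 4 cells (2.37%).

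The cells came from 29 clones in Round 1 and 43 in Round 2, of 290 and 219 spleen clones. The 5 clones with most of them held 63.1% and 52.1%, where the 5 largest clones of all spleen cells with paired chains held 53.2% and 51.1% of those. There were 0 clones of at least 2 spleen cells made of Cxcr6+ Cx3cr1- Ccr7- cells alone. The clones that gave most of them are printed to show which receptors the cells carried. In each CDR3 nucleotide sequence below, read 5′ to 3′ from the TCR library, capitals mark the bases between the start shared by most clones of the same V segment and the end shared by most clones of the same J segment, where junctional bases lie. Clones R1-1 (TRAV16N, TRAJ49, TRBV13-3, TRBJ2-4), R1-2 and R1-3 (TRAV16N, TRAJ42, TRBV13-3, TRBJ2-4) are from Round 1, and R2-1 (TRBJ2-7) and R2-2 (TRBJ2-2), both with TRAV16N, TRAJ42 and TRBV13-3, from Round 2.
R1-1 alpha: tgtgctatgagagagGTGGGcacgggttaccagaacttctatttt
R1-1 beta: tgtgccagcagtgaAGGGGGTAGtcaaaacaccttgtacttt
R1-2, R2-1 and R2-2 alpha: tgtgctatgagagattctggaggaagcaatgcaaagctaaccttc
R1-2 beta: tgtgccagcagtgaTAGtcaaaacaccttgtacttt
R1-3 alpha: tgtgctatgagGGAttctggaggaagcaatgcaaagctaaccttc
R1-3 beta: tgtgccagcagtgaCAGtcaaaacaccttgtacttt
R2-1 beta: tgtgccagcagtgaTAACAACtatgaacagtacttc
R2-2 beta: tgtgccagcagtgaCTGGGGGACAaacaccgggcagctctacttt

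Clones R1-2 and R1-3 differed by A12G in the alpha and T15C in the beta sequence, counted from 1 at the 5′ end of the CDR3, and encoded the same protein. R1-2 of Round 1 and R2-1 and R2-2 of Round 2 had the same alpha CDR3 nucleotide sequence, from separate pools of mice, and differed in the beta chain.

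Among the 3 clones of each round that gave most of the cells, between 5.96% and 19.4% of the spleen cells met the rule. Clone R1-1 had 24 of 265 spleen cells among them (9.06%), R1-2 had 19 of 232 (8.19%), and R1-3 had 13 of 218 (5.96%), while R2-1 had 31 of 206 (15.0%), R2-2 had 27 of 323 (8.36%) and R2-3, whose sequence is not shown, had 12 of 62 (19.4%). In the islets the share of the same clones that met the same rule was higher, with 44 of 86 cells for R1-1 (51.2%), 63 of 116 for R1-2 (54.3%), 47 of 90 for R1-3 (52.2%), 31 of 52 for R2-1 (59.6%), 117 of 193 for R2-2 (60.6%) and 18 of 39 for R2-3 (46.2%). Of the 21 clones of at least 10 spleen cells in Round 1 and the 25 in Round 2, 18 and 21 held at least 1 such cell, with a median share of 7.41% and 9.68%. The highest shares were 9 of 40 cells in Round 1 (22.5%, exact interval 10.8 to 38.5) and 4 of 11 in Round 2 (36.4%, interval 10.9 to 69.2). Both intervals are wide and cover counting error only.

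**Figure D5:**
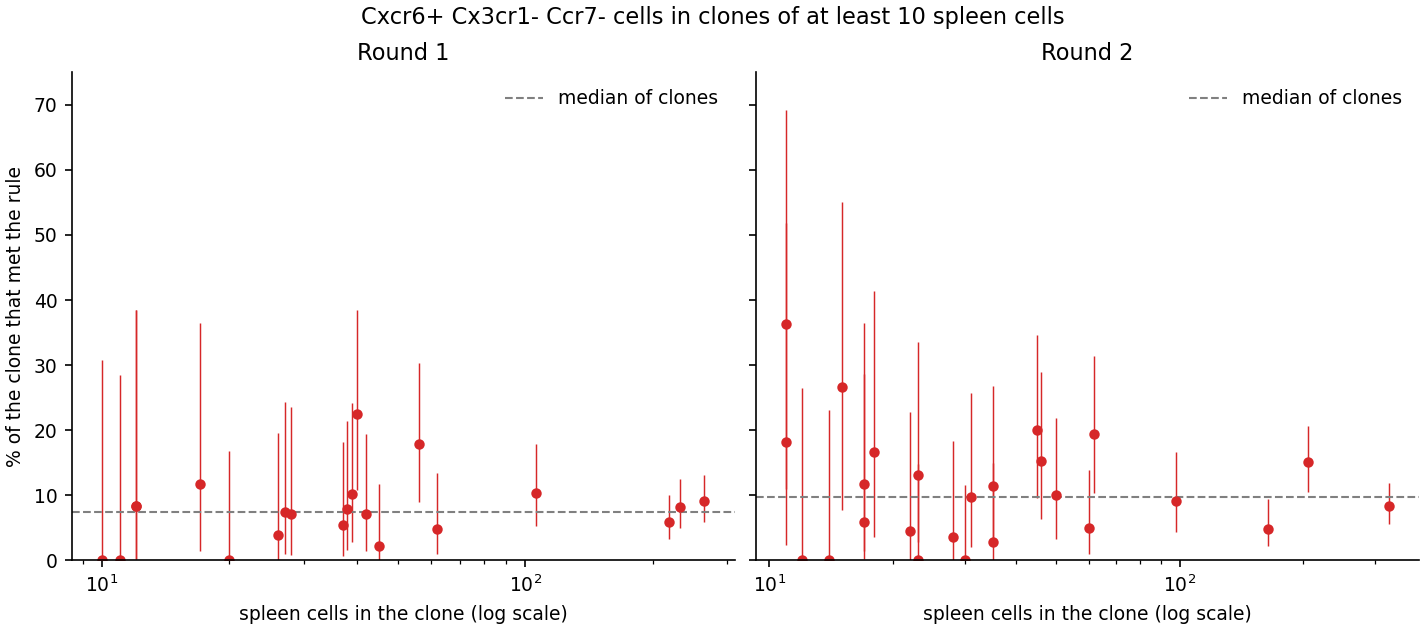
Share of each clone's spleen cells that met the rule (y axis, %) against the number of spleen cells in the clone (x axis, log scale), for clones of at least 10 spleen cells in Round 1 (left, 21 clones) and Round 2 (right, 25 clones). Points are clones, bars exact 95% binomial intervals and dashed lines the median share, 7.41% and 9.68%. The intervals of most clones include the median of their round.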

How the data were processed

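The authors sequenced 10x 5′ libraries and deposited UMI counts per gene and cell (Cell Ranger 5.0.1 per the file headers, mm10) and, per cell, assembled TCR contigs whose deposited UMI counts were used to rank chains. Kept cells had mitochondrial UMIs under 5% and 200 to 2000 genes in spleen (200 to 3500 in islets), the filter stated by the study. Gene limits were the treatment of doublets, and no caller was run. UMIs were summed per library and fraction, and all genes passing edgeR's low-count filter were tested with its quasi-likelihood test (edgeR 4.0.16, limma 3.58.1, R 4.3.3), TMM scaling and Benjamini-Hochberg adjustment, leaving out Cxcr6, Cx3cr1 and Ccr7. Spleen fractions were fitted with the library as a block. The islet comparison was fitted without it, and the round was taken as pairing because both tissues came from the same 10 mice per round, and the round differences of spleen and islet cells correlated across 8679 genes at r = 0.537 (genes are not replicates). DESeq2 1.42.0 was an alternative. TCR shares were compared over libraries by exact permutation (scipy 1.17.1). Scripts were tested on simulated counts. Intervals are exact Clopper-Pearson at 95% and cover counting error. Gene positions come from GENCODE M21, which matched 99.6% of the gene identifiers.

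Named genes were the 12 with the largest change in each direction for the comparison with the other spleen cells (5 for each other comparison), among genes that passed the 0.05 threshold, moved alike in both rounds and reached 20 CPM in the higher fraction, the rule genes and proposed markers, and up to 6 genes per list in order of level. The cells and the gene lists were chosen with earlier results of these data known. Against the other spleen cells, lists whose counts the text does not give had calls for 0 of 17 costimulatory and cytokine receptors, 0 of 11 anergy, 0 of 20 TCR signaling, 0 of 19 interferon-stimulated, 0 of 16 glycolysis and 0 of 14 MHC class I genes, 1 of 16 early response genes, 1 of 7 NK receptors and adapters and 3 of 15 tissue residency genes. No erythroid, CD4 or islet marker passed the count filter of that comparison. Some genes that the rule names are not reported here.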

Additional observations from a re-analysis of the deposited data

Results flagged for a closer look

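For 8 of the named genes the difference between Cxcr6+ Cx3cr1- Ccr7- cells and the other cells of the same library differed between spleen and tetramer-positive islets, as tested by the interaction of fraction and tissue over 4 libraries (edgeR quasi-likelihood test, 262 of 10201 genes called, 2.57%). Each value below is the spleen log2 difference minus the islet log2 difference.

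Cd160 was higher in the chosen cells of the spleen (50.1 and 59.0 CPM against 16.9 and 23.1) and stood lower in those of the islets (30.6 and 41.3 against 50.9 and 62.7), a difference of 2.093 ± 0.241 (edgeR adjusted p = 4.662e-07). Gzmb was higher in the chosen cells of both tissues, by less in spleen, where it stood at 66.3 and 59.0 CPM against 22.8 and 29.1, than in islets, where it stood at 345 and 430 against 53.1 and 64.2 (-1.461 ± 0.185, edgeR adjusted p = 2.185e-06). Ccr2 followed the same order, at 79.4 and 143 CPM against 15.6 and 27.9 in islets (-1.477 ± 0.158, edgeR adjusted p = 1.668e-07), as did S100a4, at 590 and 583 against 117 and 210 (-0.8077 ± 0.148, edgeR adjusted p = 0.0007583). The direction of the interaction was the same in both rounds for these 4 genes.

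Ramp1, a receptor-modifying protein for calcitonin-type peptides, stood at 8.08 and 4.42 CPM against 28.7 and 21.4 in spleen and at 33.6 and 32.0 against 26.6 and 36.5 in islets (-2.045 ± 0.439, edgeR adjusted p = 0.004498). Dapl1 gave 2.764 ± 0.779 (edgeR adjusted p = 0.04736), with 3 UMIs in the chosen islet cells of both rounds together. Ifitm1 gave 8.09 ± 1.53 (edgeR adjusted p = 0.001128), from 27 UMIs in 4 spleen cells. Trbv14 gave -4.714 ± 0.871 (edgeR adjusted p = 0.0007892), with 37 UMIs in the chosen islet cells of Round 1 and 0 in Round 2.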

How the results depend on the processing

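Calls against the other spleen cells (80) became 29 with at least 2 Cxcr6 UMIs required (22 shared), 14 with DESeq2 (12 shared, 1252 genes with an adjusted p), 0 with no replicate block (231 at an unadjusted p under 0.05, edgeR) and 4 with the rule applied to cells thinned to 1000 UMIs (S100a4, S100a6, Ccl4 and Trgv2, the last named after its values were seen). With no replicate block the calls were also 0 against Cx3cr1+ cells (308 unadjusted, DESeq2 with the block 76, 64 higher and 12 lower, 25 shared, 464 genes with an adjusted p), 36 against Ccr7+ cells and 0 against cells with 0 UMIs of the 3 genes (266 unadjusted). DESeq2 gave 355 against Ccr7+ cells and 20 against cells with 0 UMIs of the 3 genes, where no low-count filter gave 99 and DESeq2 size factors 42 higher and 14 lower. In the islet comparison the replicate block gave 3222 and no filter 1724 (685 higher, 1039 lower). Without the filter 34 were higher and 49 lower against the other spleen cells.

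Of 27 genes named there, Pdcd1, Lag3 and Tox had no call to lose. Of the others, 14 lost the call with at least 2 Cxcr6 UMIs, 22 after thinning, all 24 with no replicate block, and 0 with DESeq2 size factors. Ifitm1 was not tested after thinning or with at least 2 Cxcr6 UMIs. Tox, not called, turned to 0.10 after thinning, and ran from -0.156 to 0.0751 without replicate 1 or 2. The cause was not tested. Leaving out a round leaves 1 library per fraction, which gives values without a test.

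Differences in TCR shares, in points and without replicate 1 or 2 in turn, ran from 4.41 to 10.4 (TRAV16N), 4.60 to 6.54 (TRAV16N with TRAJ42), 4.94 to 5.30 (TRBV13-3), 5.54 to 10.2 (clones of at least 2 cells) and 4.34 to 12.3 (clones in islets). With each clone counted once, a count that follows clone size, they were 50.1, 48.8, 29.9, 58.4 and 56.9. With only clones of at least 2 cells they were 0.024, -0.73, 0.12, 0 and 0.48. With at least 2 Cxcr6 UMIs TRAV16N with TRAJ42 gave 3.04, TRBV13-3 4.04 and clones of at least 2 cells 4.77 (from 7.87, exact permutation p = 0.667), and with the chain of most UMIs TRBV13-3 gave 5.50. The share of chosen cells, on average 8.11%, was 5.56% after thinning, 2.68% with at least 2 Cxcr6 UMIs (chosen after the data were seen) and 6.67% to 9.55% with a round left out. With 467 cells, genes under 20 CPM rested on few UMIs.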
